A study of Mus musculus with 8 samples.

Results

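The 44 genes described here encode the machinery of mitosis: the kinases and cyclins that start it, the spindle checkpoint, the chromosomal passenger complex, the kinetochore, the motors that build and run the spindle, the proteins of cytokinesis, and the factors that fold and untangle chromosomes. They were chosen by name, with earlier results of these data known. A gene was measured where a probe set of the array named it and no other gene, which held for 43 of the 44 among 19938 measured genes; the cyclin gene Ccnb1 had no such probe set and is not analysed here. Transcripts were measured on Affymetrix mogene 1.0 ST arrays in dendritic cells that were sorted by flow cytometry from 4 mice, with 1 array for the bone marrow and 1 for the spleen of each mouse and no pooling of animals. The bone marrow cells were labelled myeloid dendritic cells and the spleen cells classical dendritic cells. All mice were 8 weeks old and of genotype CX3CR1-gfp/+, in which a reporter for green fluorescent protein occupies 1 allele of the fractalkine receptor gene, so every array comes from animals with that allele. The surface markers used for sorting were not stated in the labels.

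Most mitotic genes are transcribed late in the cell cycle and are kept silent in resting cells. Their promoters typically carry a short element called the CHR (cell cycle genes homology region) close to the gene start and, further upstream, boxes bound by the factor NF-Y. The MuvB complex binds the CHR. It represses these genes in resting cells as part of the DREAM complex, with the pocket protein p130 (Rbl2) or p107 (Rbl1) and an E2F protein, and activates them in dividing cells together with B-Myb (Mybl2) and FoxM1. Classical dendritic cells of the spleen are short-lived and are replaced from precursors that leave the marrow, and a minority of the splenic cells divide in place.

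The promoters are shown to describe the genes of the list. In the comparison given next, 42 of the 43 measured genes lay on the same side of 0. Whether promoter sequences had a part in that was not tested. RefSeq windows from 250 bases before to 50 bases after the annotated start (build GRCm38.p6) were found for 37 of the 44 genes, 39 windows in all, since Ect2 and Prc1 have 2 starts each. The CHR was searched as TTTGAA or its reverse complement TTCAAA, and the NF-Y box as CCAAT or ATTGG. The stretches below are the 100 bases before the start in 8 genes, read 5′ to 3′ along the gene, with CHR and NF-Y matches in capitals. Kif11, Ncapg, Top2a, Cdk1 and Ube2c have a CHR in this stretch, Bub1 has only NF-Y boxes and Melk has neither. Cenpa, the gene whose level did not lie below that of the spleen, has 1 NF-Y box here. Its CHR, at position 17 past the start, and another NF-Y box, at position -109, lie outside the stretch.
Kif11: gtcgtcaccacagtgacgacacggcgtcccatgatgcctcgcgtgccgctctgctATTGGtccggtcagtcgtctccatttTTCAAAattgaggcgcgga
Ncapg: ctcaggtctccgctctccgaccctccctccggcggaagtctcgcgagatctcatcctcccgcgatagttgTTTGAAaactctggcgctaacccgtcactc
Top2a: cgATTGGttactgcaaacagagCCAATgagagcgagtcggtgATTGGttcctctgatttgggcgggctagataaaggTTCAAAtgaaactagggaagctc
Cdk1: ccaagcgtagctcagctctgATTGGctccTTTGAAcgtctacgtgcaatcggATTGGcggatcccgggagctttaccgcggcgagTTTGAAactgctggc
Ube2c: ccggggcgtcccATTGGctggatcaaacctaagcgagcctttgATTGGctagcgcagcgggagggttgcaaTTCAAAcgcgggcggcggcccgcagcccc
Bub1: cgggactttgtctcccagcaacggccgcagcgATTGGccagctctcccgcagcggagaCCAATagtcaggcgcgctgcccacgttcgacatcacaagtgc
Melk: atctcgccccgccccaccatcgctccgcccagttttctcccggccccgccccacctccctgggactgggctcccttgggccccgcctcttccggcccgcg
Cenpa: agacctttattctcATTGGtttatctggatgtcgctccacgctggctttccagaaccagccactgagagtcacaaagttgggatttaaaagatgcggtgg

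Kif11 (chr19:37376282-37376381), Ncapg (chr5:45669825-45669924), Ube2c (chr2:164769829-164769928), Melk (chr4:44300817-44300916) and Cenpa (chr5:30666786-30666885) lie on the plus strand. Top2a (chr11:99024190-99024289), Cdk1 (chr10:69352913-69353012) and Bub1 (chr2:127831860-127831959) lie on the minus strand. In Top2a a CHR begins at position -23 from the gene start, behind 3 NF-Y boxes in the printed stretch, and in Kif11 a CHR at position -19 follows a single box at position -45. Over the 39 windows, 76.9% held a CHR, against 17.9% of all 32851 RefSeq windows of that length. An NF-Y box stood in 76.9%, against 37.4% of all windows, and 69.2% held both, against 6.95%. The matches were not spread evenly: 28 windows (71.8%) had a CHR that begins within 50 bases of the start, against 4.94% of all windows, and 26 (66.7%) an NF-Y box that begins in the 100 bases before it, against 19.3%. A CHR and an NF-Y match overlapped in 1 of the 39 windows. The windows of Nuf2, Nusap1, Ncaph, Melk, Mad2l1 and Birc5 held neither sequence, as did 51.7% of all windows. In the comparison given next, 15 of 28 measured genes with a CHR match passed the test and 6 of 8 without one, with median log2 fold changes of -0.48 and -0.60; whether these differ was not tested. A match is a description of the sequence and not a binding site.

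**Figure D1:**
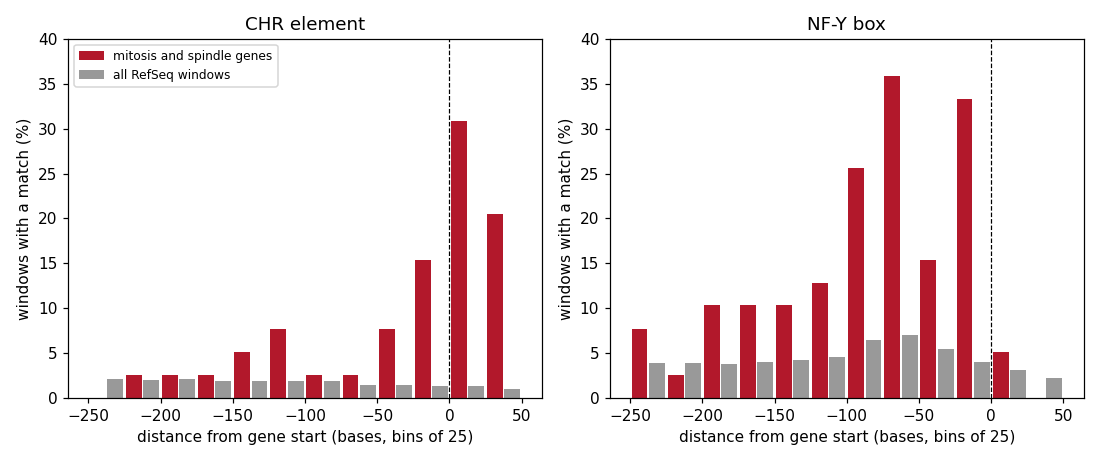
Share of RefSeq promoter windows with a match, in bins of 25 bases by where the match begins, for CHR elements (left) and NF-Y boxes (right) in the 39 windows of the mitosis and spindle genes (red) and in all 32851 windows (grey). CHR matches of the mitotic genes gather at the gene start, where the bin just after it holds 30.8% of their windows against 1.31% of all, and NF-Y boxes in the 100 bases before it.

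Mitosis and spindle genes were lower in bone marrow than in spleen. Of the 43 measured genes, 26 were lower and none higher at an adjusted p of 0.05 in limma (Benjamini-Hochberg over all genes); at an unadjusted p of 0.05 the counts were 33 lower and 1 higher. At the adjusted threshold 9.2% of all genes passed as lower in bone marrow and 9.26% as higher, together 18.5%. The share of all genes at the unadjusted threshold was not counted, here or for the further lists below. With the mouse as a replicate block 26 were again lower, against 8.33% of all genes. The log2 fold change, bone marrow minus spleen, was negative in 42 of 43 genes, ran from -0.90 to 0.27 and had a median of -0.49, where the median over all genes was -0.0071. The differences were modest in size: no gene reached a 2-fold change, and in 21 of 43 all 4 bone marrow values lay below all 4 spleen values, as they did in 10.2% of all genes. The reverse held for none of the 43 and for 10.4% of all genes. Calls were repeated under 16 alternative ways of processing, among them leaving out each array, numbered here by mouse. The count of 26 was 20 with quantile normalization and 19 with median centring, where 9.73% and 7.78% of all genes were lower. It was 17 without bone marrow replicate 3 (7.36% of all genes) and 11 when an intensity of 20 was subtracted as background (7.6%). In a population of sorted cells, fewer dividing cells and less of these transcripts in each dividing cell cannot be told apart.

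**Figure D2:**
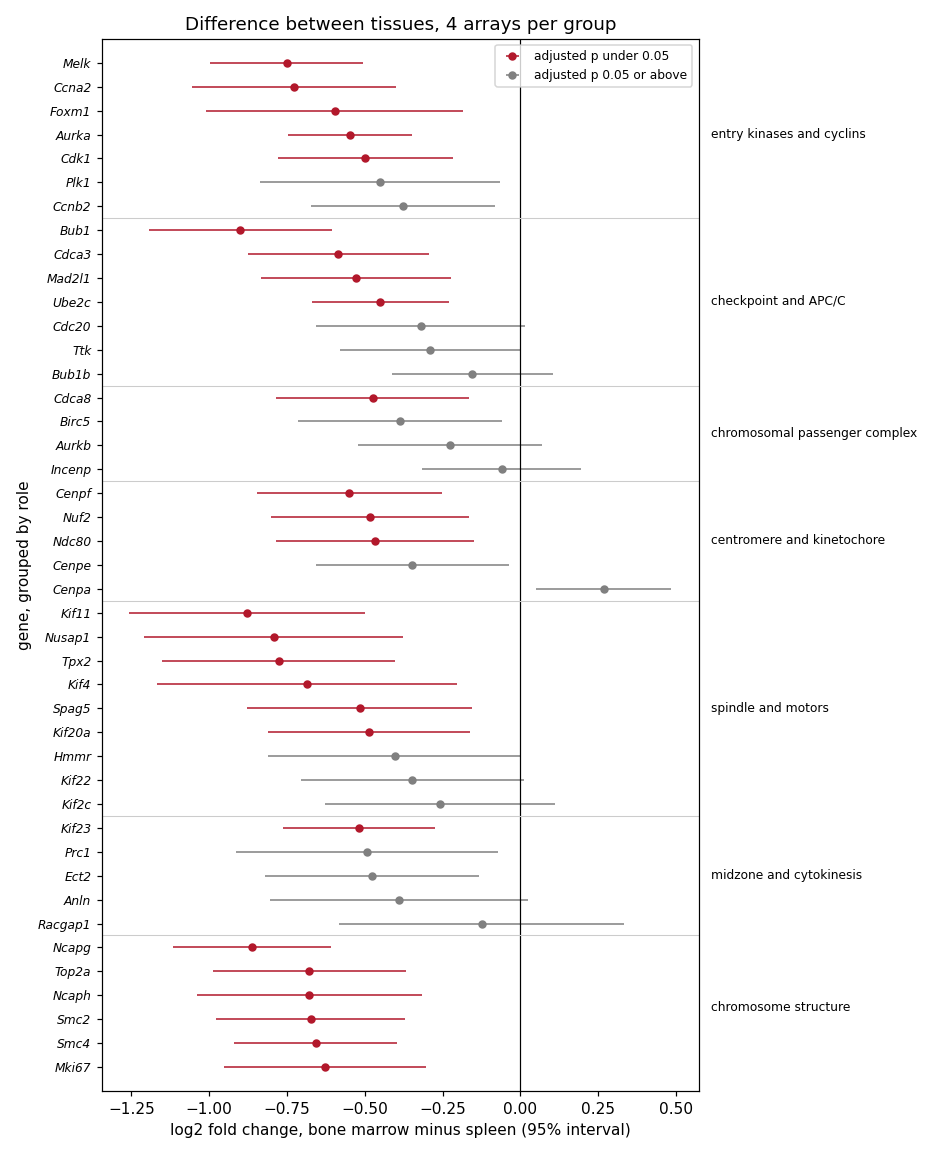
Log2 fold change of each of the 43 measured genes, bone marrow minus spleen, with limma's 95% interval, 4 arrays per group. The genes are grouped by role, and red marks an adjusted p under 0.05. All points but that of Cenpa lie left of 0, and the 6 chromosome structure genes are all red.

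Of the 7 measured genes that start mitosis, kinases and cyclins together with the transcription factor gene Foxm1, 5 were lower, against 9.2% of all genes. Cdk1, the kinase that drives entry into mitosis, stood at intensities of 365, 470, 349.5 and 541 in bone marrow of mice 1 to 4 and at 606, 604, 648 and 544 in spleen (fitted log2 change -0.50 ± 0.13 SE, n = 4 arrays per tissue, adjusted p = 0.015). The 2 groups did not overlap, but the values of mouse 4 were almost equal. The Cdk1 call ended without bone marrow replicate 1 or 3 and with background subtracted, with an adjusted p of up to 0.074. Ccna2, the cyclin of S phase and early mitosis, stood at 490, 807, 571 and 752 in bone marrow and 1133, 993, 918 and 1239 in spleen (change -0.73 ± 0.15, adjusted p = 0.0037). Every spleen array was above every marrow array. Melk, a kinase of dividing progenitor cells, stood at 173, 179, 179 and 247 in bone marrow and 328, 354, 315 and 299.9 in spleen (change -0.75 ± 0.11, adjusted p = 3.4e-04), again without overlap. Aurka, the kinase of the spindle poles, was 1.46-fold lower (-0.55 ± 0.09, adjusted p = 8.2e-04).

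Plk1, the polo-like kinase, did not pass: its bone marrow values of 392, 668, 362 and 630 overlapped those of the spleen, 686, 757, 652 and 617 (-0.45 ± 0.18, 95% interval -0.84 to -0.07, adjusted p = 0.11). Its low marrow values came from mice 1 and 3, and it passed without bone marrow replicate 2 or 4 (adjusted p from 0.026 to 0.31 over the 16 alternatives). Ccnb2, a B-type cyclin, had geometric means of 635 in bone marrow and 824 in spleen (change -0.38 ± 0.14, adjusted p = 0.080), and passed with the mouse as a replicate block (adjusted p = 0.048), with array weights and without bone marrow replicate 4 (lowest adjusted p = 0.016). Foxm1, the transcription factor that activates many genes of this list, stood at 264 and 399 (-0.60 ± 0.19, adjusted p = 0.046). Its call ended under 9 of 16 alternatives (adjusted p up to 0.17). Among them were quantile normalization, median centring, background subtraction and the replicate block (adjusted p = 0.062). The others left out marrow array 1 or 3, or spleen array 1, 2 or 3. The spleen array of mouse 4, at 298, lay below that mouse's marrow array, at 358.

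Of 7 genes of the spindle checkpoint and of the anaphase-promoting complex, 4 were lower, against 9.2% of all genes. The checkpoint delays chromosome separation until every kinetochore is attached, and the anaphase-promoting complex (APC/C) then marks cyclin B and securin for destruction. Bub1, a checkpoint kinase at the kinetochore, had the largest fall of the whole list. It stood at 142, 211, 171 and 213 in bone marrow and at 293, 317, 397 and 358 in spleen (fitted log2 change -0.90 ± 0.14 SE, n = 4 arrays per tissue, adjusted p = 3.3e-04), a 1.87-fold difference with no overlap. Its relative Bub1b, which encodes the inhibitor BubR1, had means of 310 and 345 (-0.15 ± 0.12, 95% interval -0.41 to 0.11, adjusted p = 0.51). Mad2l1, another inhibitor of the complex, was 1.44-fold lower (adjusted p = 0.018). It was not past the threshold with background subtracted, or without bone marrow replicate 3 or spleen replicate 4 (up to 0.088 over the alternatives). Cdca3 and Ube2c, a trigger of mitotic entry and the ubiquitin-conjugating enzyme of the APC/C, had log2 fold changes of -0.59 and -0.45 (adjusted p = 0.0074 and 0.0064). The APC/C activator Cdc20 (-0.32, adjusted p = 0.21) and the checkpoint kinase Ttk (-0.29, adjusted p = 0.19) did not pass; Ttk did without bone marrow replicate 4 (adjusted p = 0.044).

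The chromosomal passenger complex, which corrects faulty attachments and later directs cytokinesis, had 1 of 4 genes lower, against 9.2% of all genes. Its kinase Aurkb stood at 549, 776, 676 and 944 in bone marrow and 829, 929, 807 and 821 in spleen (fitted log2 change -0.23 ± 0.14 SE, n = 4 arrays per tissue, 95% interval -0.52 to 0.07, adjusted p = 0.35). The marrow array of mouse 4 was the highest of the 8. Birc5, which encodes survivin, stood at 367, 574, 412 and 574 in bone marrow and at 639, 708, 635 and 505 in spleen (change -0.39 ± 0.15, adjusted p = 0.11). Here the spleen array of mouse 4 lay below the marrow arrays of mice 2 and 4, and the gene passed without it and with array weights (lowest adjusted p = 0.044). The scaffold Incenp had means of 444 and 463 (-0.06 ± 0.12, 95% interval -0.32 to 0.20, adjusted p = 0.85), and its sign changed when marrow array 1 or 3, or spleen array 2 was left out. Cdca8, which encodes borealin, was the member that passed (-0.47 ± 0.14, adjusted p = 0.035), a call that ended under 7 of 16 alternatives, among them those without marrow array 1 or 3, or spleen array 1, 2 or 3 (adjusted p up to 0.13).

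At the centromere and kinetochore 3 of 5 genes were lower, against 9.2% of all genes. Cenpf, a large protein of the outer kinetochore, was 1.46-fold lower (fitted log2 change -0.55 ± 0.14 SE, n = 4 arrays per tissue, adjusted p = 0.012). Ndc80 and Nuf2, which pair in the complex that grips microtubules, had log2 fold changes of -0.47 and -0.48 (adjusted p = 0.042 and 0.036), and each call ended under 9 of 16 alternatives. Leaving out marrow array 1 or 3, or spleen array 1, 2 or 3 ended both, spleen replicate 4 that of Ndc80 and bone marrow replicate 2 that of Nuf2 (adjusted p up to 0.15 and 0.14). Quantile normalization, median centring and background subtraction ended both as well. The kinetochore motor Cenpe did not pass (-0.35 ± 0.14, adjusted p = 0.13; 0.028 without bone marrow replicate 2). Cenpa, the histone H3 variant that marks the centromere, was the only gene of the 43 with a positive fold change. It stood at 743, 803, 818 and 758 in bone marrow and 549.5, 774, 652 and 635 in spleen (change 0.27 ± 0.10, 95% interval 0.05 to 0.49, adjusted p = 0.091). It was higher in marrow in 4 of 4 mice, but the spleen value of mouse 2 exceeded 2 marrow values, and the gene passed only without spleen replicate 2 (adjusted p = 0.020).

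Of 9 genes of spindle assembly and its motors 6 were lower, against 9.2% of all genes. Kif11, the motor that pushes spindle poles apart, stood at 279, 425, 291 and 538 in bone marrow and 687, 721, 697 and 617 in spleen (fitted log2 change -0.88 ± 0.17 SE, n = 4 arrays per tissue, adjusted p = 0.0028). The marrow values ranged widely and still lay below all spleen values. Nusap1, which bundles microtubules near chromosomes, stood at 267, 505, 287 and 505 in bone marrow and 656, 726, 622 and 594 in spleen (change -0.79 ± 0.19, adjusted p = 0.010). Tpx2, the activator of the kinase Aurora A on the spindle, stood at 228, 363, 211 and 389 and at 492, 521, 474 and 482 (-0.78 ± 0.17, adjusted p = 0.0059). Both genes showed the same pair of low marrow arrays, from mice 1 and 3, and neither overlapped with spleen.

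The X-linked chromokinesin Kif4 passed narrowly, with 58.3, 124, 63.2 and 120 in bone marrow and 130, 167, 129 and 130 in spleen (change -0.69 ± 0.22 SE, n = 4 per group, adjusted p = 0.049; with the replicate block, adjusted p = 0.0092). The call ended under 9 of 16 alternatives, those without marrow array 1 or 3, or any 1 spleen array among them (adjusted p up to 0.20). Spag5, which holds kinetochore fibres at the poles, and Kif20a, a motor of late mitosis, had log2 fold changes of -0.52 and -0.49 (adjusted p = 0.049 and 0.038). Without marrow array 1 or 3, or spleen array 1, 2 or 3 neither passed, nor did Spag5 without spleen replicate 4 (up to 0.17 and 0.14 over the alternatives). Quantile normalization, median centring and background subtraction also ended the calls of Spag5, Kif20a and Kif4. Hmmr, Kif22 and Kif2c did not pass, with log2 fold changes of -0.40, -0.35 and -0.26. Hmmr encodes a spindle pole protein, Kif22 a chromosome-bound motor, and Kif2c a kinesin that takes microtubules apart.

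Of the 5 genes of the spindle midzone and cytokinesis 1 passed as lower, against 9.2% of all genes. Kif23, the motor of the centralspindlin complex, stood at 782, 1116, 849.5 and 1090 in bone marrow and at 1340, 1411, 1319.5 and 1368 in spleen (fitted log2 change -0.52 ± 0.11 SE, n = 4 arrays per tissue, adjusted p = 0.0051). Its spleen arrays lay close together and above all marrow arrays. Its partner in that complex, Racgap1, stood at 323, 597, 354 and 611 in bone marrow and 536, 577, 533 and 358 in spleen (change -0.12 ± 0.21, 95% interval -0.58 to 0.33, adjusted p = 0.83). For this gene the groups overlapped fully, and the difference changed sign between mice, being lower in marrow in 2 of 4. The exchange factor Ect2 (-0.48, adjusted p = 0.055), the bundler Prc1 (-0.49, adjusted p = 0.11) and anillin, Anln (-0.39, adjusted p = 0.22), did not pass. Without bone marrow replicate 4 both Ect2 and Prc1 passed, and Ect2 also without spleen replicate 4 (lowest adjusted p = 0.0049 for Ect2 and 0.0093 for Prc1).

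All 6 genes of chromosome structure were lower in bone marrow, in 4 of 4 mice and without overlap. Over all genes these shares were 9.2%, 15.6% and 10.2%. Mki67, which encodes the proliferation marker Ki-67 that coats mitotic chromosomes, stood at 821, 1252, 970 and 1324 in bone marrow and 1827, 1876, 1616 and 1360 in spleen (fitted log2 change -0.63 ± 0.15 SE, n = 4 arrays per tissue, adjusted p = 0.0094). Marrow and spleen of mouse 4 were nearly level. Top2a, the topoisomerase that untangles sister chromatids, stood at 411, 585, 403 and 630.3 and at 725, 907, 795 and 767 (-0.68 ± 0.14, adjusted p = 0.0042). A second, much dimmer probe set of this gene gave means of 11.9 and 13.9 and a log2 fold change of -0.22. Both probe sets lay lower in marrow, and the brighter one was used.

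The other 4 genes of this group are subunits of condensin, the ring that compacts chromosomes. Ncapg stood at 199, 245, 182 and 257 in bone marrow and at 345, 418, 405 and 425 in spleen (change -0.86 ± 0.12 SE, n = 4 per group, adjusted p = 1.5e-04). It had the lowest p of the 43 genes. Smc2 and Smc4, the ATPases of the ring, were 1.60-fold and 1.58-fold lower (adjusted p = 0.0038 and 0.0015), with marrow values from 242 to 375 against 425 to 515 for Smc2 and from 776 to 1131 against 1396 to 1591 for Smc4. Ncaph, the subunit that closes the ring, ran from 181 to 335 in bone marrow and from 347 to 464 in spleen (change -0.68 ± 0.17, adjusted p = 0.011).

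**Figure D3:**
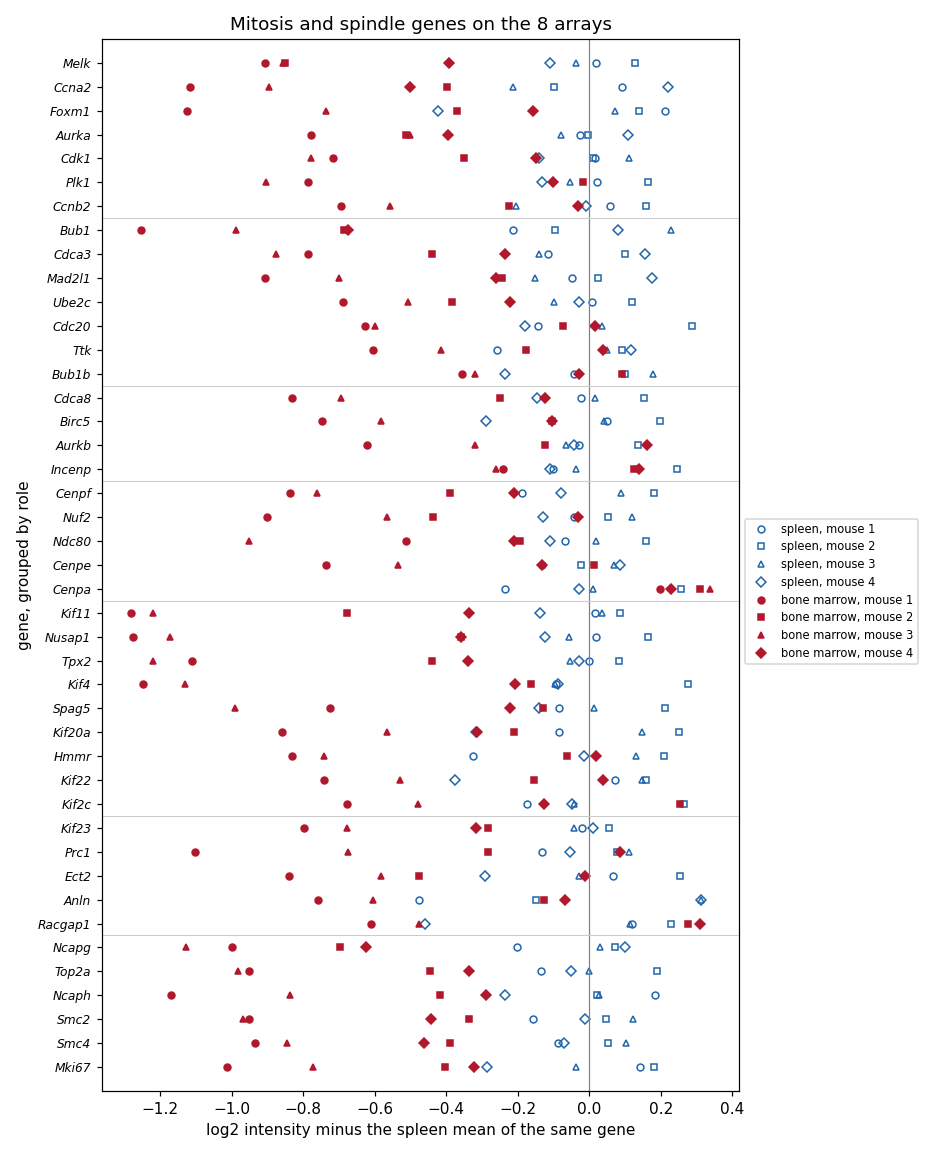
Log2 intensity of each of the 43 measured genes on each of the 8 arrays, minus that gene's spleen mean, with marrow arrays filled red, spleen arrays open blue and a marker shape per mouse. In most rows the marrow arrays of mice 1 (circle) and 3 (triangle) lie far left, while those of mice 2 (square) and 4 (diamond) lie nearer to the spleen arrays.

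The bone marrow arrays differed from each other more than the spleen arrays did. The median SD of log2 intensity over the 43 genes was 0.336 in bone marrow and 0.154 in spleen, where over all genes it was 0.121 and 0.127. The mean log2 level of the 43 genes was 7.92, 8.48, 8.03 and 8.56 in bone marrow of mice 1 to 4, and 8.68, 8.86, 8.76 and 8.66 in spleen. In 41 of 43 genes the marrow arrays of mice 2 and 4 stood above those of mice 1 and 3, with Aurka and Cenpa the exceptions. Over all genes 23.2% shared this order in marrow. The reverse order held for none of the 43 and for 6794 of all 19938 genes, so these pairs of arrays differed far beyond the mitotic genes. In spleen the same order held for 7 of the 43 genes (16.3%) and for 18.5% of all genes. The difference within a mouse therefore varied, with a mean over the 43 genes of -0.77 in mouse 1, -0.38 in mouse 2, -0.73 in mouse 3 and -0.10 in mouse 4. Marrow was the lower tissue in 42, 39, 42 and 27 genes of these mice, and in 25 genes it was lower in 4 of 4 mice (58.1%, against 15.6% of all genes).

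Some array-wide values moved with this order. The marrow arrays of mice 1 and 3 had higher median intensities over all probe sets (134.6 and 133.5) than those of mice 2 and 4 (127.2 and 125.1), and lower upper quartiles (411 and 416 against 429 and 433). The summed intensity of 5 progenitor genes (Kit, Cd34, Gata2, Meis1 and Hlf) was 791 and 797 in marrow of mice 1 and 3 and 908 and 1028 in mice 2 and 4. In spleen it was 3718 to 4720, with 2 of the 5 genes lower in marrow and 1 higher. Their log2 fold changes ran from -3.66 to 0.26 with a median of -0.036, so the sums do not stand for the typical gene. Summed neutrophil markers did not follow the order, with the lowest marrow value, 20990, in mouse 2 and 27500 in mouse 4. Mouse 4 also stood apart in sex-linked genes, in marrow and spleen alike: Xist stood at 3400 and 5340 there and at 49.2 or below in the other mice, while the Y-linked Kdm5d stood at 50.7 and 46.8 there and at 376 or above elsewhere. The labels give no sex. Without mouse 4, an alternative chosen after seeing the data, 31 of the 43 genes were lower and none higher. In that fit 9.1% of all genes were lower and 1602 genes were higher. The part of these array-wide values in the result was not tested.

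**Figure D4:**
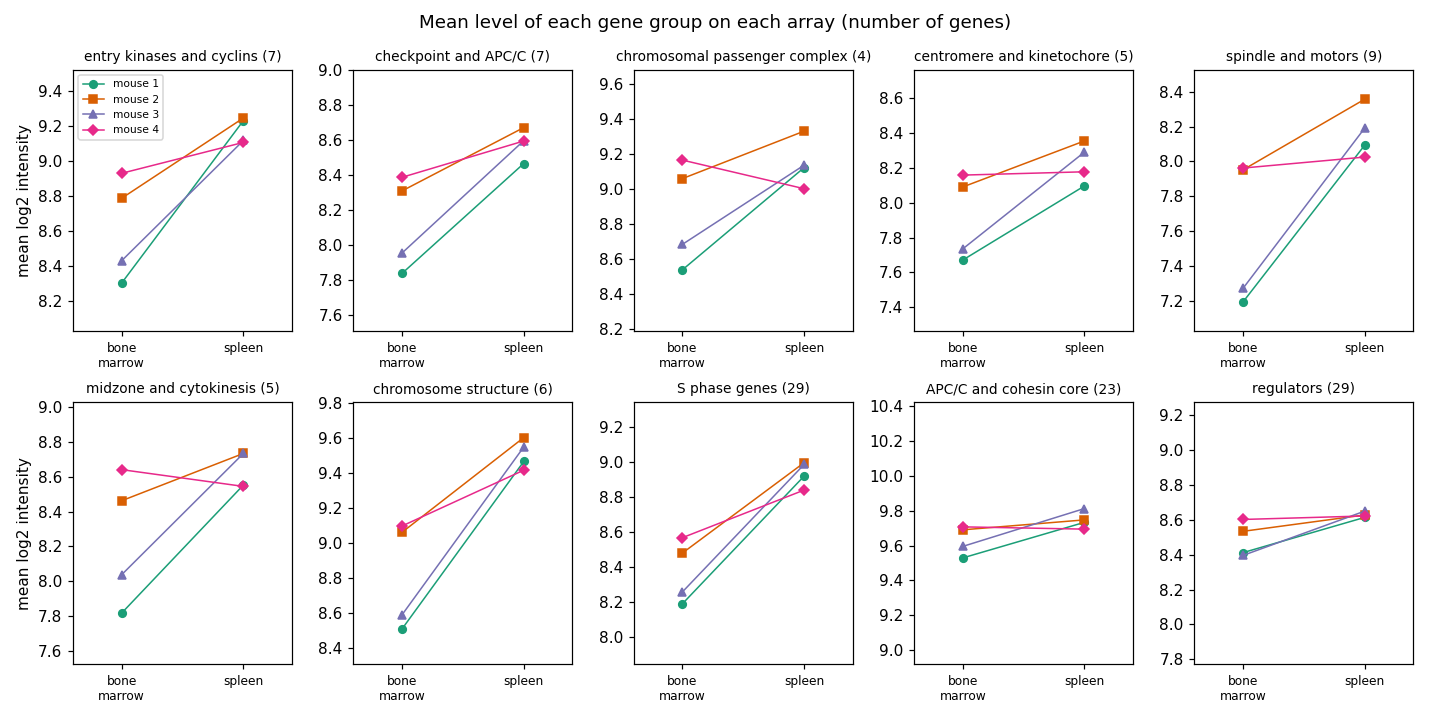
Mean log2 intensity of each gene group on each array, with a line joining the marrow and spleen arrays of a mouse and every panel spanning 1.5 log2 units. In the panels of mitotic and S phase genes the lines of mice 1 and 3 rise most steeply from marrow to spleen and that of mouse 4 least or not at all, and the panels of APC/C and cohesin core genes and of regulators are flatter.

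Markers of other cell types differed between the same arrays, where 9.26% of all genes were higher in bone marrow and 9.2% lower. Of 10 neutrophil markers all were higher in bone marrow, with summed intensities of 20990 to 28810 against 1516 to 1820 in spleen. All 7 measured monocyte and macrophage markers were higher (24230 to 29220 against 5309 to 6493), as were 5 of 6 erythroid (918 to 1356 against 439.5 to 618.5) and 4 of 6 early B cell markers (555 to 765 against 406 to 478). Of 6 mature B cell markers 5 were lower in marrow (1221 to 1356 against 2996 to 3436), as were 5 of 6 T and NK cell markers (1039 to 1382 against 2826 to 3112). Among 8 general dendritic cell markers 3 were lower and none higher, with sums of 51380 to 54910 in bone marrow and 54920 to 59280 in spleen. Their log2 fold changes ran from -1.28 to 0.065 with a median of -0.19, and 5 of the 8 were negative. The class II gene H2-Ab1, bright in marrow and spleen (means of 15354 and 14678), does not stand for the other markers. Which cells these marker transcripts came from, and whether other cell types had a part in the mitotic gene levels, was not tested.

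Beyond the 43 genes, 37 of 81 further mitotic genes measured were lower (45.7%, against 9.2% of all genes) and none higher in limma. At an unadjusted p of 0.05 the counts were 54 lower and none higher, and the median log2 fold change was -0.41. Cep55, a scaffold of the final cut between daughter cells, was 1.93-fold lower (fitted log2 change -0.94 ± 0.17 SE, n = 4 arrays per tissue, adjusted p = 0.0014). Ska2, part of a complex that tracks microtubule ends, was 1.90-fold lower (-0.92 ± 0.11, adjusted p = 3.7e-05), and Cks1b, a small partner of Cdk1 and Cdk2, was 1.78-fold lower (-0.83 ± 0.15, adjusted p = 0.0012). The standing core of the APC/C and of cohesin, which cells also use outside mitosis, had a median of -0.08. Here 5 of 23 were lower (21.7%) and 1 higher, against 9.2% and 9.26% of all genes. The APC/C subunit Anapc13 was 1.30-fold lower (adjusted p = 0.0036) and Anapc2 1.28-fold higher (adjusted p = 0.024), though Anapc2 did not pass without marrow array 2, 3 or 4, or spleen array 1 or 4 (up to 0.079). With the replicate block 2 of the 23 were lower, where 8.33% of all genes were. Smc1a, the cohesin ATPase, and the APC/C subunit Anapc11 no longer passed with it (adjusted p = 0.057 and 0.052). The count of lower genes was also 2 without bone marrow replicate 1 or spleen replicate 2, and 3 without marrow array 2 or 3, or spleen array 1 or 4.

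Among 29 measured regulators of the mitotic program 5 were lower (17.2%, against 9.2% of all genes) and none higher in limma. At an unadjusted p of 0.05 the counts were 10 lower and 3 higher. Wee1 and Pkmyt1, kinases that hold Cdk1 inactive, were among the lower ones, with Wee1 at 257 in bone marrow and 441 in spleen (fitted log2 change -0.78 ± 0.13 SE, n = 4 arrays per tissue, adjusted p = 8.5e-04). The pocket protein gene Rbl1 was 1.45-fold lower (adjusted p = 0.0016), and the Cdk4 and Cdk6 inhibitor Cdkn2c was 1.42-fold lower (adjusted p = 0.022). Cdkn2c did not pass with median centring or background subtraction, or without marrow array 1 or 3, or spleen array 4 (up to 0.10). With either of those marrow arrays left out, 3 regulators were lower. Rbl2, the pocket protein of resting cells, had means of 754 and 693 (0.12 ± 0.09, 95% interval -0.06 to 0.31, adjusted p = 0.45). E2f1 (-0.15 ± 0.09, adjusted p = 0.37), Mybl2 (-0.06 ± 0.09, adjusted p = 0.81) and the inhibitor Cdkn1b (0.03 ± 0.08, adjusted p = 0.91) did not pass. Cdkn1a and Trp53 had no probe set of their own and are not analysed here.

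Of 29 measured S phase genes 22 were lower (75.9%, against 9.2% of all genes) and none higher in limma. At an unadjusted p of 0.05 the counts were 25 lower and none higher, and the median log2 fold change was -0.54. Tyms, which makes thymidylate, was 2.22-fold lower (fitted log2 change -1.15 ± 0.11 SE, n = 4 arrays per tissue, adjusted p = 5.6e-06), the primase subunit gene Prim1 2.20-fold lower, and Hells, a chromatin remodeller, 1.99-fold lower. Of 10 genes of G1, 6 were lower (60%) and 1 higher, where 9.26% of all genes were higher. Ccnd1, the D-type cyclin that links growth signals to the cycle, stood at 1436, 1844, 1414 and 2025 in bone marrow and 4476.5, 5191, 4417 and 4010.5 in spleen (change -1.44 ± 0.12, adjusted p = 2.6e-06). Its spleen values were all well above its marrow values. The other D-type cyclins did not pass, with log2 fold changes of -0.29 for Ccnd2 (adjusted p = 0.12) and -0.05 for Ccnd3 (adjusted p = 0.83). The E-type cyclins Ccne1 and Ccne2 were 1.54-fold and 1.82-fold lower (adjusted p = 0.0014 and 3.7e-04), and the kinase Cdk6 was the gene that was higher, by 1.33-fold (adjusted p = 0.0089).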

How the data were processed

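Values are linear intensities, 1 for each probe set on each array. The authors produced the deposited intensity table in Affymetrix Expression Console 1.4, as listed in the submitters' processing notes; how it was background-corrected, normalized and summarized is not given there. Array medians lay between 125 and 135. No detection call came with the values, so a dim gene may lie at background, which compresses its fold change. Of 35556 probe sets, 21789 named exactly 1 gene, 1621 named several, and the gene table lacked 12146. The brightest probe set of each gene was kept (19938 genes). Log2 intensities were fitted with limma 3.58.1 in R 4.3.3, bone marrow minus spleen, over all genes without a filter. The Benjamini-Hochberg threshold was 0.05. The fit was tested on simulated data with noise drawn independently for each gene. That test does not cover differences between arrays that many genes share. Intensities given for a group are geometric means.

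The description labels give the same mouse for equal replicate numbers. Deviations of such paired arrays from their group means correlated across genes at 0.10, -0.09, -0.18 and -0.05 for mice 1 to 4. The labels thus pair the arrays by mouse but state no test; the main fit was made without the mouse as a block, and the fit with it was an alternative. p-values measure the spread between mice together with that of sorting and amplification from small RNA inputs; the number of arrays limits the precision.

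The genes and lists were chosen with earlier results of these data known. Full statistics were given for the 12 called genes with the largest fold, for Mki67, Top2a, Cdk1, Plk1, Aurkb and Birc5, and for up to 3 genes per direction of each further list, with some regulators whatever their result; values of other genes were added after they were seen. Promoters came from RefSeq (GRCm38.p6), matched by symbol; the 8 printed were chosen after matches were known. Alternatives were quantile normalization, median centring, leaving out the dimmest 40% of genes, averaging probe sets, an intensity trend, array weights, a replicate block, subtracting 20 intensity units with a floor of 5, and leaving out each array.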

Additional observations from a re-analysis of the deposited data

Results flagged for a closer look

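Within each tissue, 132 groups of 4 values (43 mitotic genes and the named genes of the other lists) were examined for a value far from the other 3, and 6 were found, where chance gives about 1 in 20. The numbers below are the gap to the nearest other array as a share of the group's range. Melk in bone marrow had mouse 4 at 247 against 173 to 179 (0.892). Kif4 in spleen had mouse 2 at 167 against 129 to 130 (0.975). Kif22 and Racgap1 in spleen had mouse 4 lowest, at 245 against 335 to 356 (0.834) and at 358 against 533 to 577 (0.833). Anapc11 in spleen had mouse 4 highest, at 860 against 684 to 709 (0.842). Cdkn1b in bone marrow had mouse 2 highest, at 3270 against 2960 to 2990 (0.881).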

How the results depend on the processing

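The median log2 fold change of the 43 mitotic genes stayed between -0.61 and -0.40 over all 16 processing alternatives and was -0.65 without mouse 4. Of the 26 calls, 11 held in every one of them (Bub1, Kif11, Ncapg, Melk, Ccna2, Top2a, Smc2, Smc4, Aurka, Kif23 and Ube2c), 6 ended only when 20 intensity units were subtracted, and 9 ended in others too; the causes were not tested. Of the 17 genes not called, 8 passed in at least 1 alternative. With 20 units subtracted, 11 of the 43 genes and 18 of the 81 further mitotic genes were lower, against 7.6% of all genes. No APC/C or cohesin core gene was then higher (0 of 23). Leaving out 1 array at a time gave 17 to 31 of the 43 genes lower and 0 to 1 higher, 2 to 4 APC/C and cohesin core genes lower and 0 to 1 higher, and 3 to 6 regulators lower. The lowest count of the 43, 17, came without bone marrow replicate 3 (7.36% of all genes lower), and replicate 1 gave 18 (7.45%). The highest, 31, came without bone marrow replicate 4 (9.13%). Median centring left 3 APC/C and cohesin core genes lower, and the replicate block 2; quantile normalization made 1 regulator higher, and without mouse 4 no APC/C or cohesin core gene was higher (0). With the mouse as a replicate block, 26 of the 43 genes were lower, with Foxm1 lost and Ccnb2 gained, and 40 of the 81 further mitotic, 23 of 29 S phase, 5 of 10 G1 and 5 of 29 regulator genes; of the genes named in the text, Smc1a and Anapc11 were the other calls it changed. The sign of Cdkn1b changed with quantile normalization (-0.0209) and with averaged probe sets (-0.00924). Leaving out 1 array also changed signs near 0, over ranges of -0.00753 to 0.0691 for Cdkn1b, -0.126 to 0.022 for Incenp, -0.278 to 0.037 for Racgap1, -0.123 to 0.00232 for Ccnd3 and -0.118 to 0.0159 for Mybl2. Detection above background could not be assessed.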

Other observations

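The promoters of the other cell cycle lists were searched for the same short sequences, in the same RefSeq windows from 250 bases before to 50 bases after the start. Among 77 windows of the further mitotic genes, 48.1% held a CHR match and 63.6% an NF-Y box, with both in 33.8%. Among 27 windows of S phase genes, 11.1% held a CHR match, against 17.9% of all windows, and 59.3% an NF-Y box. Among 21 windows of APC/C and cohesin core genes the shares were 14.3% and 52.4%. The median G and C content was 59% in the windows of the mitosis and spindle genes, 57.7% in those of S phase genes and 52.7% over all windows. The median log2 fold change was -0.54 over the S phase genes and -0.49 over the mitosis and spindle genes. None of these differences between lists was tested.

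The 44 genes lie on 16 chromosomes, with 7 on chromosome 2 and 5 each on chromosomes 4 and 11.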
